A study of Mus musculus with 12 samples.

Results

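The mitochondrial respiratory chain genes described here are the nuclear genes for subunits of complexes I to IV and of the ATP synthase. Members were chosen by symbol, as every gene beginning with Nduf, with Sdh followed by a letter from a to d, with Uqcr, with Cox4 to Cox8 or with Atp5, on probe sets that the platform annotation ties to a single gene symbol. The rule gave 94 of the 18193 genes measured, on 185 probe sets, and it used no expression value. It also took in 12 assembly factors of complexes I and II, whose symbols share the prefixes. Of the 94 members, 90 had enough signal to be tested on the 12 arrays. The other 4 were Cox4i2, Cox7b2, Cox8b and Ndufb4.

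RNA had been profiled on 12 Affymetrix arrays of keratinocytes sorted from the back skin of female mice aged 72 to 74 days, of mixed C57BL/6 and CD1 background, as resting hair follicles moved from the second telogen to anagen, the growth phase. The genotypes are labelled TßRII-Het and TßRII-cKO, here Het and cKO, and concern Tgfbr2, the type II TGF-beta receptor gene. The sort used Rosa26-YFP, P-cadherin and CD34, and gave the hair germ (HG), the bulge and total skin keratinocytes. HG and bulge are both compartments of hair follicle stem cells (HFSCs). Each fraction of each genotype was collected in set 1 and in set 2. HFSCs of set 1 are labelled quiescent in both genotypes, while in set 2 the Het cells are labelled activated and the cKO cells aberrantly quiescent. Total keratinocytes carry no such state in their labels. This makes 10 labelled groups. Each HG or bulge group is a single array, and each genotype has 2 arrays of total keratinocytes. The labels used here do not give the Cre driver, the number of mice per array, or whether HG, bulge and total keratinocytes of a set share mice, so p-values measure only the spread between these arrays.

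The respiratory chain sits in the inner mitochondrial membrane. Complexes I and II pass electrons from NADH and succinate to coenzyme Q, complex III passes them to cytochrome c and complex IV to oxygen, and complexes I, III and IV pump protons whose return through the ATP synthase drives ATP synthesis. Most subunits are encoded in the nucleus, and their promoters are known for sites of the factors NRF1, GABP (an ETS protein), YY1 and ERR. In skin, respiration and its reactive oxygen by-products have been linked to keratinocyte differentiation and to hair follicle growth.

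Promoter windows of 300 bases, from 250 before to 50 after the gene start, were given by RefSeq on GRCm38.p6 for 78 of the 94 members. The NRF1 core GCATGCGC stood on either strand in the windows of 11 members (14.1%, against 3.05% of the 27025 genes of the table). The ETS core CCGGAAG was found in 22 members (28.2%, against 9.93%), the YY1 core AAGATGG in 11 (14.1%, against 7.28%) and the ERR core AAGGTCA in 8 (10.3%, against 5.38%). At least 1 of these 4 letter strings, which were searched on both strands and may overlap each other, was in the windows of 41 members (52.6%, against 23.1%). Windows of the 4 members with the largest called difference in any comparison and an entry in the table are shown 5′ to 3′ on the gene's strand, with matches in capitals. Cox7a1 lies on the plus strand at chr7:30183921-30184220, Ndufaf4 on the plus strand at chr4:24897833-24898132, Cox6b2 on the minus strand at chr7:4753045-4753344 and Ndufc1 on the minus strand at chr3:51408906-51409205.
Ndufaf4: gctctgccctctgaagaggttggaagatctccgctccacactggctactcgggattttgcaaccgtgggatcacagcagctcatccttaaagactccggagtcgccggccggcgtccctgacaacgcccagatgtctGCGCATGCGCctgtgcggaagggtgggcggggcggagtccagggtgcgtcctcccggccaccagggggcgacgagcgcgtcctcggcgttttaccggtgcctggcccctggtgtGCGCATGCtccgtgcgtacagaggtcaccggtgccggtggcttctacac
Ndufc1: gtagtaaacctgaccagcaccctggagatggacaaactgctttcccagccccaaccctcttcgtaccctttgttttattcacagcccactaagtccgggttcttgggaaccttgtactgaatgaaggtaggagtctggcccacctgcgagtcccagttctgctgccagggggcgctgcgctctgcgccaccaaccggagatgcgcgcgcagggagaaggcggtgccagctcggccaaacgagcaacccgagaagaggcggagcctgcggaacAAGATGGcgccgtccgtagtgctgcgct
Cox6b2: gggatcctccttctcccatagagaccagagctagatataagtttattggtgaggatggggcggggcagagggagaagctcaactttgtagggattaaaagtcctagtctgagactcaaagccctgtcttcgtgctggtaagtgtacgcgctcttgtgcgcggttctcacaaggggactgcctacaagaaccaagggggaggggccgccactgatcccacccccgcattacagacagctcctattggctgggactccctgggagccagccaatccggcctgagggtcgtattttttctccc
Cox7a1: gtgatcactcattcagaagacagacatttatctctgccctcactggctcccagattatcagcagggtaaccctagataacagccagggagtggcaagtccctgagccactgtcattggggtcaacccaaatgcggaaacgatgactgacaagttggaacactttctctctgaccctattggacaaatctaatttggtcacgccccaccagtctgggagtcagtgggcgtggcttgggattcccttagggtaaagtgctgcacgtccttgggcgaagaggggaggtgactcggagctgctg
The Ndufaf4 window held 3 matches to the NRF1 core, of which a pair overlapped on opposite strands. The Ndufc1 window held 1 match to the YY1 core, in the bases after the gene start. The windows of Cox6b2 and Cox7a1, isoform genes of restricted tissue expression, held none of these letters. The call that placed Cox7a1 among these windows is only a description, since the gene was tested only through the fraction where it is high.

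Values are MAS5 signals on a log2 scale, each array scaled by the authors, and differences are log2 differences from limma, where 1 stands for a doubling. A gene was called where the Benjamini-Hochberg adjusted p from limma was under 0.05. Median signal over all probe sets lay between 63.9 and 109 per array. The targeted gene Tgfbr2 lay between 10.35 and 12.39 on the 6 Het arrays and between 11.31 and 12.14 on the 6 cKO arrays, with a difference of 0.24 (limma adjusted p = 0.675). Where its probes lie with respect to the deletion is not known here, so it checks no label. Marker genes of fibroblasts were higher in the bulge fraction and those of melanocytes in HG, and these are given beside the fraction results.

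The members moved up and down together from array to array. For each gene the log2 signal was taken relative to its own mean over the 12 arrays, and the median over the 90 tested members described the array. This median was highest in Het bulge of set 2 (0.35) and Het HG of set 2 (0.30), and lowest in Het total keratinocytes of set 1 (-0.40) and cKO HG of set 1 (-0.33). Het HG of set 1 (0.05) and cKO HG of set 2 (0.12) were near or above the mean, and cKO bulge stood below it in both sets (-0.12 and -0.10). The same median over all 12749 genes tested stayed between -0.12 and 0.06. Over the 12 arrays the median pairwise Pearson correlation between members was 0.61. Of the 90 members, 61 (67.8%) had a correlation above 0.7 with the median of the other members, a level reached by 4.55% of the 12659 other genes. These correlations share arrays, scaling and RNA quality and are given as a description. Atp5o and Atp5e, both ATP synthase subunits, followed the other members most closely (0.97 each), and Cox7c (-0.60), Cox8c (-0.34), Cox6a2 (-0.33) and Ndufa4l2 (-0.21) ran against them.

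**Figure D1:**
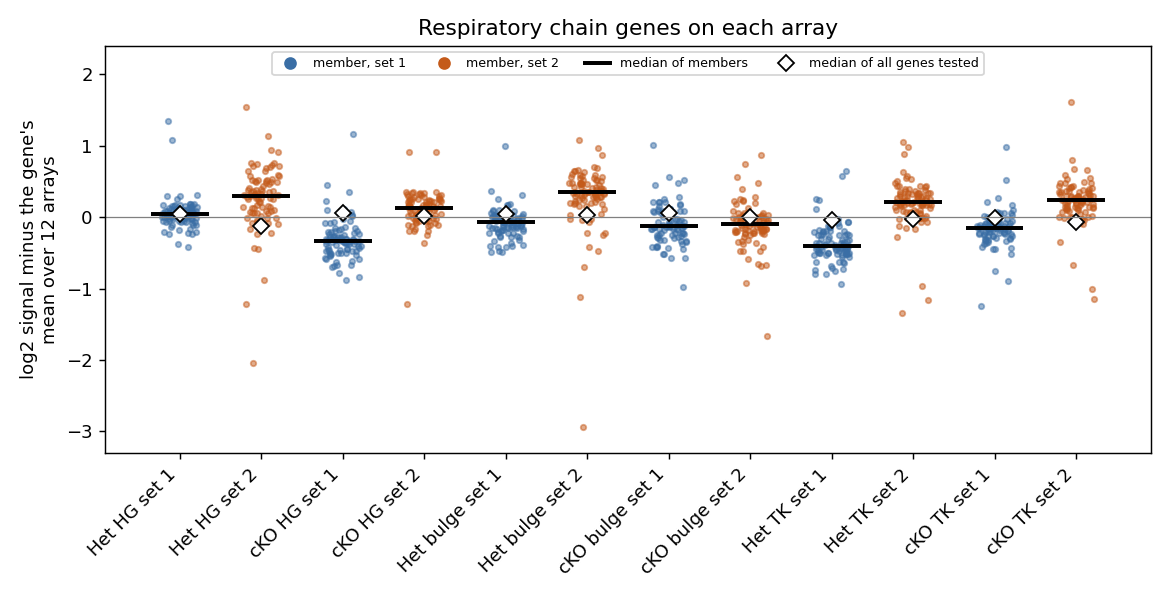
Log2 signal of each of the 90 tested members relative to its own mean over the 12 arrays (y axis), by array (x axis), with a black bar for the members' median and an open diamond for the median of all genes tested. The members' median was highest in Het bulge of set 2 (0.35) and lowest in Het total keratinocytes of set 1 (-0.40), while the diamonds stayed between -0.12 and 0.06.

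Most respiratory chain genes had higher values in set 2 than in set 1, in members of every complex. Set was compared on all 12 arrays as 6 pairs of the same genotype and fraction. Of 90 members, 12 rose and none fell, against 2.00% of all 12749 genes that rose and 3.10% that fell. The difference was positive in 85 members, with a median of 0.37, where the median over all genes was -0.08. Of the members, 50 had several probe sets above the pooled median on 2 or more arrays. In 39 of these, all such probe sets had the same sign. At an unadjusted p under 0.05, 59 members differed. The typical 95% interval of a member reached 0.29 to either side, so most positive values were near the size that 6 pairs could resolve.

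Complex I, the NADH dehydrogenase, had 6 core members, all with positive differences (median 0.33) and none called. Ndufv1, the subunit that binds NADH, lay between 12.01 and 12.21 (median 12.18) on the 6 arrays of set 1 and between 12.16 and 12.93 (median 12.55) on those of set 2. Its difference was 0.37 (SE 0.12, limma adjusted p = 0.0783), with overlap between the sets and a higher value in set 2 in 6 of 6 pairs. The 27 accessory subunits tested, which surround the core and stabilise it, were also all positive (median 0.37), and 4 of them rose. Ndufc1, a small membrane subunit whose promoter is shown above, ranged from 12.25 to 13.06 in set 1 (median 12.81) and from 12.95 to 13.88 in set 2 (median 13.65). It rose by 0.76 (SE 0.12, limma adjusted p = 0.0200) and was higher in set 2 in 6 of 6 pairs, although the sets overlapped. A further probe set of Ndufc1 gave 0.70. Ndufa1 rose by 0.56 (adjusted p = 0.0354), Ndufc2 by 0.56 (0.0330) and Ndufs5 by 0.50 (0.0331), each higher in 6 of 6 pairs.

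All 12 assembly factors were positive (median 0.40), and 2 rose. Ndufaf8, which helps to build complex I, lay between 10.69 and 11.21 (median 10.96) in set 1 and between 11.23 and 11.83 (median 11.38) in set 2, with no overlap. Its rise was 0.49 (SE 0.11, limma adjusted p = 0.0358). Ndufaf2, another complex I assembly factor, rose by 0.57 (SE 0.14, limma adjusted p = 0.0490) and was higher in 5 of 6 pairs. The pair that went the other way was cKO bulge, by -0.02.

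Complex II, the succinate dehydrogenase shared with the TCA cycle, had 4 members, of which 2 rose. Sdhb, the iron-sulfur subunit, spanned 11.95 to 12.65 (median 12.32) in set 1 and 12.61 to 13.17 (median 12.74) in set 2, and rose by 0.52 (SE 0.11, limma adjusted p = 0.0358). Sdhd, a membrane anchor, spanned 10.74 to 11.19 (median 11.09) and 11.25 to 11.76 (median 11.54), without overlap, and rose by 0.49 (SE 0.12, limma adjusted p = 0.0481). Sdha, the flavoprotein that oxidises succinate, did not pass, at 11.33 to 11.44 (median 11.38) in set 1 and 11.43 to 11.83 (median 11.50) in set 2 (difference 0.16, limma adjusted p = 0.344). In complex III, the cytochrome bc1 complex, all 8 members were positive (median 0.39). Uqcrq rose by 0.52 (limma adjusted p = 0.0441, 5 of 6 pairs) and Uqcr11 by 0.51 (limma adjusted p = 0.0395, 6 of 6 pairs), both small subunits. Uqcrc1, a core protein of the complex, lay between 11.91 and 12.60 (median 12.31) in set 1 and between 11.41 and 12.99 (median 12.48) in set 2, so its sets covered each other (difference 0.04, limma adjusted p = 0.887).

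No member of complex IV, the cytochrome c oxidase, was called. Of its 11 ubiquitous members, 9 were positive, with a median of 0.28. Cox4i1, the common form of a regulatory subunit, ranged from 14.11 to 14.68 (median 14.50) in set 1 and from 14.40 to 15.09 (median 14.65) in set 2, with a difference of 0.24 (limma adjusted p = 0.333). Ndufa4, once counted with complex I and now with complex IV, came closest to the threshold, with 0.48 (SE 0.13, limma adjusted p = 0.0541) and 6 of 6 pairs. Cox7c had the lower value in set 2 in 6 of 6 pairs (limma adjusted p = 0.0677), on a dim probe set that exceeded the pooled median on 9 of 12 arrays, so no size is given.

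The ATP synthase, which turns the proton gradient into ATP, had 17 members, all positive (median 0.37), and 2 rose. Atp5j, the coupling factor 6 of the stalk, lay between 12.93 and 13.38 (median 13.24) in set 1 and between 13.43 and 13.90 (median 13.69) in set 2. Atp5k, the e subunit of the membrane part, lay between 13.14 and 13.54 (median 13.39) and between 13.55 and 14.11 (median 13.80). The sets did not overlap for either gene, and the rises were 0.49 (SE 0.12, limma adjusted p = 0.0439) and 0.45 (SE 0.11, limma adjusted p = 0.0441). Atp5b, the catalytic beta subunit, did not pass, at 13.03 to 13.54 (median 13.29) and 13.26 to 14.06 (median 13.68), with a difference of 0.40 (limma adjusted p = 0.0707) and 6 of 6 pairs higher in set 2.

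**Figure D2:**
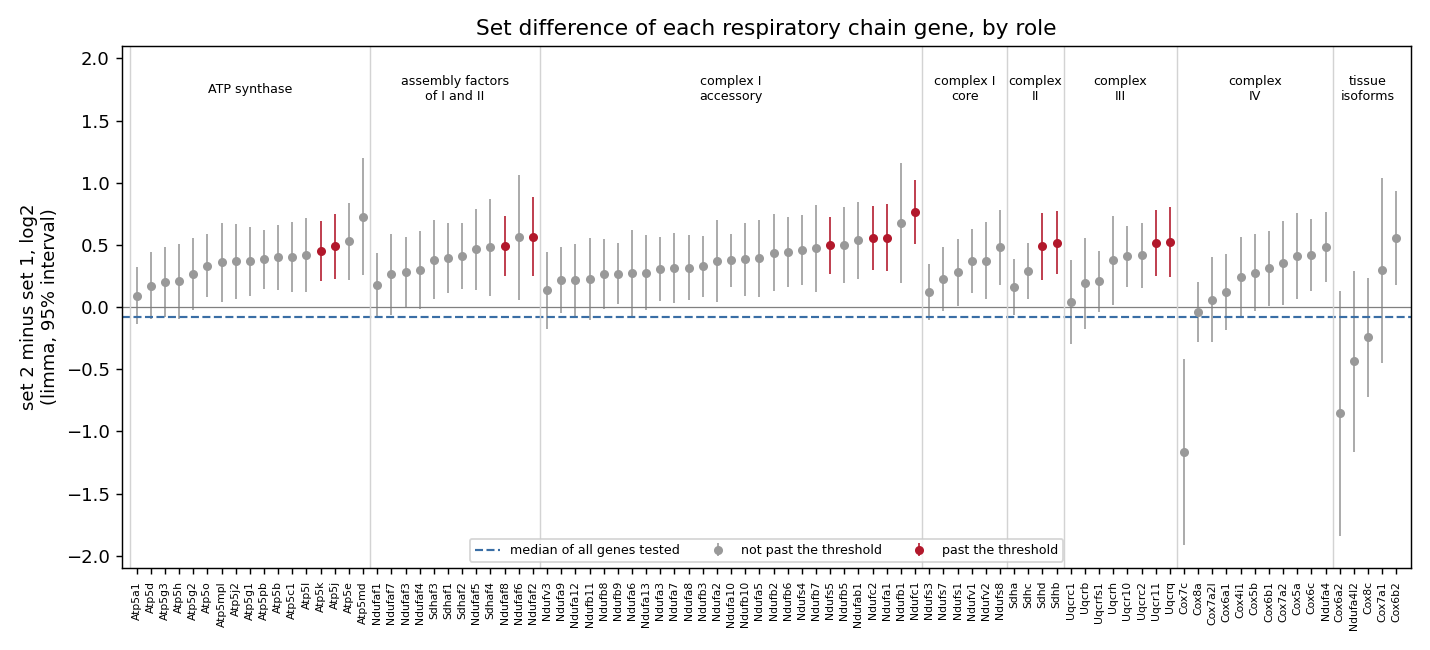
Set 2 minus set 1 difference of each tested member (y axis, log2, point with 95% limma interval), ordered within each role (x axis), with called members in red and the median of all genes as a dashed line at -0.08. Differences were positive in 85 of 90 members, and the negative ones were Cox7c, Cox8a, Cox6a2, Ndufa4l2 and Cox8c.

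Pair by pair, set 2 was higher in 5 of 6 pairs. The median difference over the members was 0.22 in Het HG, 0.49 in cKO HG, 0.42 in Het bulge, 0.64 in Het total keratinocytes and 0.40 in cKO total keratinocytes. In cKO bulge it was -0.02, with 43 of 90 members positive. Of these pairs, Het HG and Het bulge are the ones in which set 2 is labelled activated. Total keratinocytes carry no state label. Their hair germ markers in Het were Shh at 6.45 in set 1 and 10.85 in set 2, and Lef1 at 8.81 and 10.46. Lgr5 had 10.45 and 10, and Cdh3 9.33 and 10.07. In cKO total keratinocytes Shh had 7.95 and 7.96, and Lef1 8.49 and 7.82. The part of this in the members' difference was not tested. Of the members, 29 (32.2%) were higher in set 2 in all 6 pairs, against 6.21% of all genes. In 5 members (5.56%) every array of set 2 exceeded every array of set 1, as in 81 of all 12749 genes (0.635%), and 2.00% of all genes rose by the test. The 5 members were Atp5j, Atp5k, Ndufaf8, Sdhd and Sdhaf2, the last a complex II assembly factor named after its values were seen.

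Without the cKO bulge pair 22 members rose, and without the Het HG pair 15. The count was 1 without cKO HG, without cKO total keratinocytes or without Het bulge, and 0 without Het total keratinocytes. No member fell in any of these, and the members' median without each pair in turn stayed between 0.30 and 0.42. Of the 12 risen members, Ndufc1 kept its call in 13 of 16 alternatives, Ndufc2 in 9, Ndufa1 in 8 and Sdhd in 3, and each of these stayed positive in all 16. With each array centred on its median instead of the authors' scaling, all genes shifted upward and 56 members rose, with 86 positive. By quantile normalization 13 rose and 82 were positive. No member rose without the filter on low signal or in eBayes without a trend, 1 rose with a 1.5-fold minimum, 2 with the mean of all probe sets, 3 with fraction as the only block and 6 with the floor at the pooled median. Under these scalings 79.8% and 49.1% of all called genes rose in set 2, compared with 39.2% under the authors' scaling.

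Signal level and RNA quality also moved with set. Among the 3188 genes of highest mean signal, 4.33% rose and the median difference was 0.02. The 73 members among them had a median of 0.37, with 72 positive and 11 risen. The 3′ to 5′ signal ratio of Gapdh, which grows as RNA breaks down or is copied incompletely, was lower in set 2 in 6 of 6 pairs (1.47 to 2.66 in set 1 and 1.08 to 2.05 in set 2). That of actin was lower in 5 of 6 pairs, and the signal of the 18S ribosomal RNA probe was higher in 6 of 6. A list of 14 dissociation stress genes had sums of 92757 to 115560 in set 1 and 53521 to 235602 in set 2. Its median set difference was 0.05, with 8 positive and none called. In set 2, Atf3 and Fosb were highest in Het bulge (12.12 and 11.06) and cKO total keratinocytes (14.17 and 12.51). All 5 leukocyte markers and 5 of 6 fibroblast markers had negative set differences (medians -0.75 and -0.86), and 1 and 4 of them fell. Summed fibroblast marker signal lay between 15126 and 280840 in set 1 and between 15920 and 149949 in set 2, and the leukocyte sum between 2956 and 5931 and between 1080 and 5393. Set differences were also negative in all tested markers of pericytes and smooth muscle (5, median -0.43, 1 fell), melanocytes (6, median -0.31, none called), keratinocytes (5, median -0.16, none called) and endothelium (3, median -0.38, none called), and 1 of 4 sebocyte markers fell. The pericyte and smooth muscle sum was 4322 to 7989 in set 1 and 3296 to 4297 in set 2, and the keratinocyte sum 103472 to 134028 and 59939 to 136557. The melanocyte sum was 1610 to 18841 and 1001 to 19364, the endothelial sum 177 to 581 and 113 to 499, and the sebocyte sum 8355 to 29879 and 13029 to 29522. Of 4 hair germ markers, 3 had positive set differences (median 0.33, none called). Their sum was 2435 to 5330 in set 1 and 1704 to 14409 in set 2. Of 5 bulge markers, 3 had negative set differences (median -0.19, none called). The part of these in the members' difference was not tested. In bulk samples, fewer cells of a type and less RNA per cell cannot be told apart.

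**Figure D3:**
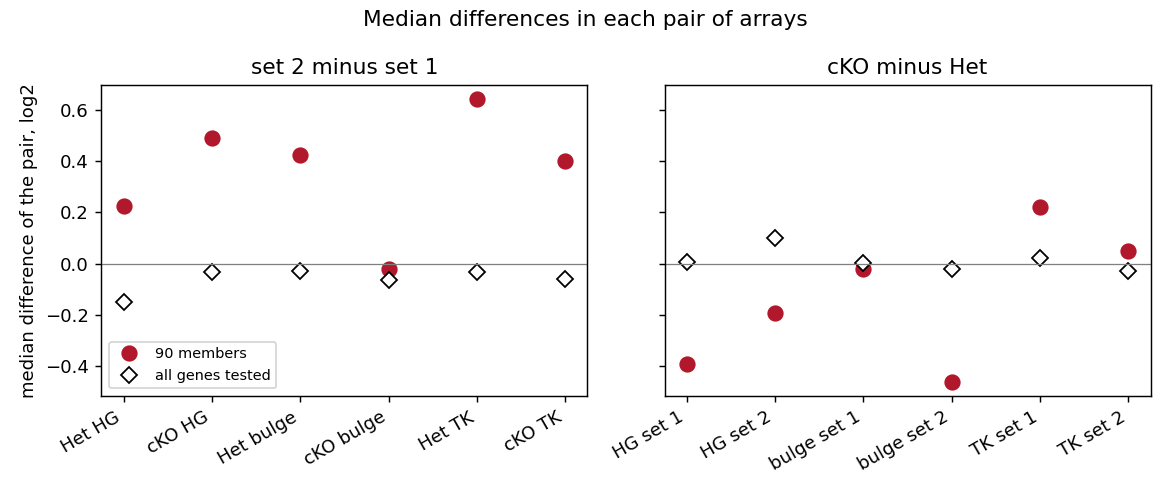
Median log2 difference over the 90 members (red) and over all genes tested (open diamonds) in each pair of arrays, for set 2 minus set 1 (left) and cKO minus Het (right). The members' set difference was between 0.22 and 0.64 in 5 pairs and -0.02 in cKO bulge, and the genotype difference was negative in the 4 HFSC pairs and positive in both pairs of total keratinocytes (TK).

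Few members were called between fractions, and those called came from different complexes. In HG against bulge (8 arrays, paired by genotype and set), 2 of 90 members rose and none fell, against 8.44% of all 12589 genes that rose and 10.7% that fell. The members' median was 0.01, with 47 positive and 43 negative, and the pair medians ranged from -0.29 in cKO of set 1 to 0.25 in cKO of set 2. In HG against total keratinocytes 1 member rose and none fell (5.11% and 5.72% of all genes), with a median of 0.04. In bulge against total keratinocytes 5 rose, including the dim Cox7a1, and 4 fell (13.8% and 10.5% of all genes), with a median of 0.02. As shares of the 90 members these were 2.22% risen in the first comparison, 1.11% risen in the second, and 5.56% risen and 4.44% fallen in the last. The 3 comparisons share arrays, so they are not independent of each other.

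Among the called members, Ndufaf4, a complex I assembly factor, differed most from HG to bulge. The dim Cox7c had a larger value there, without a call. The log2 signals of Ndufaf4 in HG were 9.96 in Het and 9.89 in cKO of set 1, and 10.81 and 9.85 in set 2. In bulge they were 9.18, 8.69, 9.20 and 9.09 in the same order, and in total keratinocytes 9.91, 9.48, 10.21 and 9.74. Every bulge array was below every array of the other fractions. Ndufaf4 rose in HG against bulge by 1.09 (SE 0.20, limma adjusted p = 0.00581) and fell in bulge against total keratinocytes by 0.79 (SE 0.17, limma adjusted p = 0.00513). Its other probe set gave 0.84 and -0.32. Ndufs8, an iron-sulfur core subunit of complex I, was also low in bulge, at 12.38 and 12.23 in set 1 and 12.96 and 12.14 in set 2. HG had 12.89, 12.50, 13.55 and 12.79, and total keratinocytes 12.53, 12.84, 13.43 and 13.39. The fractions overlapped, but the order held in 4 of 4 pairs, with a rise of 0.50 in HG against bulge (SE 0.15, limma adjusted p = 0.0478) and a fall of 0.62 in bulge against total keratinocytes (SE 0.18, limma adjusted p = 0.0245). The dimmest probe set of Ndufs8 went the other way, at -0.29 and 0.79. Its remaining probe sets had the same signs as the one kept.

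Among the other members lower in bulge, Uqcrc1 had signals of 12.18 and 11.91 in set 1 and 12.72 and 11.41 in set 2, against 12.58, 12.60, 12.76 and 12.99 in total keratinocytes. It fell by 0.68 (SE 0.22, limma adjusted p = 0.0381), and Het bulge of set 2 lay inside the range of total keratinocytes. In HG it had 12.12, 12.43, 12.25 and 11.96. Of 14 alternative settings, the fall of Uqcrc1 kept its call in 7 and that of Ndufs8 in 8, and the rise of Ndufs8 in HG in 6, whereas both Ndufaf4 differences kept it in 13.

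Members higher in bulge than in total keratinocytes came from several complexes. Ndufc2, an accessory subunit of complex I, had 13.93 and 14.05 in bulge of set 1 and 14.53 and 14.39 of set 2, against 13.11, 13.32, 13.91 and 13.84. It rose by 0.68 (SE 0.16, limma adjusted p = 0.00803) and the fractions did not overlap. Uqcrb, which binds ubiquinone in complex III, had 15.49, 15.93, 15.92 and 15.69 in bulge against 14.74, 15.13, 15.29 and 15.39, and rose by 0.62 (SE 0.20, limma adjusted p = 0.0371), although its other probe set gave 0.04. Atp5g2, which encodes the c subunit of the ATP synthase rotor, had 13.73, 13.91, 13.98 and 13.88 against 13.00, 13.36, 13.51 and 13.65, with no overlap, and rose by 0.50 (limma adjusted p = 0.0468). Ndufc2 kept its call in 13 of 14 alternatives, Uqcrb in 5 and Atp5g2 in 3.

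**Figure D4:**
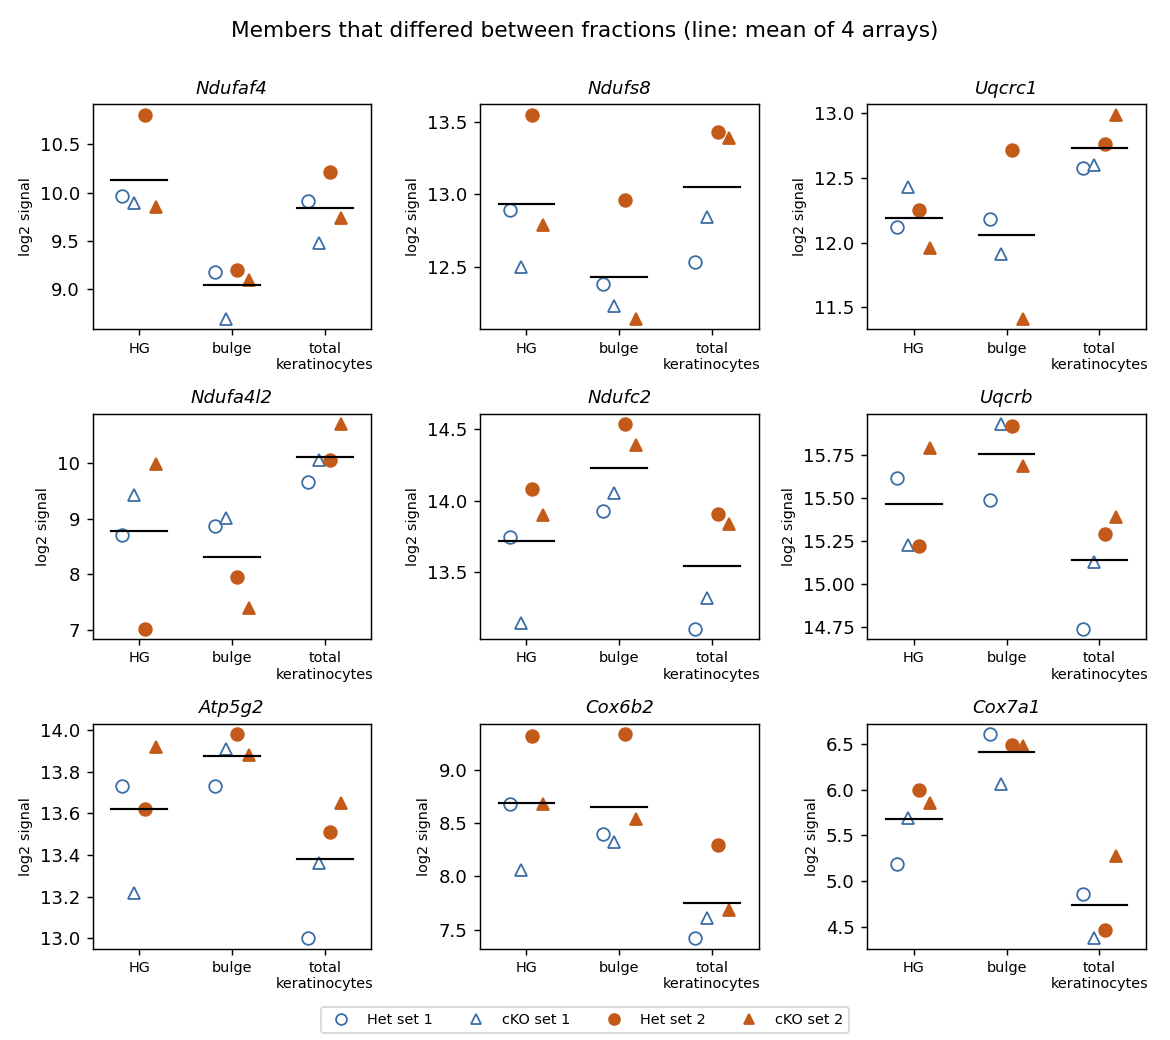
Log2 signal (y axis, own scale per gene) on each array for the 9 members called between fractions, by fraction (x axis), with circles for Het, triangles for cKO, open blue symbols for set 1, filled orange symbols for set 2 and a line at the mean of 4 arrays. Ndufaf4 was lowest on the 4 bulge arrays (8.69 to 9.20), and Cox6b2 was lowest in total keratinocytes except for Het of set 2 (8.29).

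Isoform genes, whose products replace a common subunit in certain tissues, were among the members called between fractions. Cox6b2, the testis form of a complex IV subunit, had 8.68 and 8.06 in HG of set 1 and 9.31 and 8.68 of set 2. Bulge had 8.40, 8.32, 9.33 and 8.54, and total keratinocytes 7.42, 7.61, 8.29 and 7.69. Cox6b2 rose in HG (by 0.93, SE 0.20, limma adjusted p = 0.0138) and in bulge (by 0.89, SE 0.20, limma adjusted p = 0.00543) against total keratinocytes, in 4 of 4 pairs each, and only bulge did not overlap with total keratinocytes. All 3 measured markers of germ cells stayed below the pooled median of all arrays on every array, with sums between 13 and 100. Ndufa4l2, a paralog of Ndufa4 known for its induction in hypoxia, had 8.87 and 9.02 in bulge of set 1 and 7.95 and 7.40 of set 2, against 9.65, 10.05, 10.06 and 10.69 in total keratinocytes. The fractions did not overlap, and it fell by 1.80 (SE 0.47, limma adjusted p = 0.0141). In HG it spread most widely, at 8.70, 9.43, 7.03 and 9.98. Its ubiquitous counterpart Ndufa4 ranged from 12.39 to 13.66 over all arrays and was not called between fractions. The bulge differences of Cox6b2 and Ndufa4l2 each kept their call in 13 of 14 alternatives, and the HG difference of Cox6b2 in 11.

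Cox7a1, the heart and muscle form of a complex IV subunit, had 6.61, 6.07, 6.49 and 6.48 in bulge, 5.19, 5.69, 6.00 and 5.86 in HG, and 4.86, 4.37, 4.46 and 5.27 in total keratinocytes. The signal was dim. It exceeded the pooled median only on 3 bulge arrays and was at the floor of 4.37 on 1 array of total keratinocytes. The gene thus entered the test only through the fraction in which it is high and had to differ there, so its call, 1 of the 5 rises in bulge, is given as a description, with no size. Its common counterpart Cox7a2 ranged from 14.23 to 15.42 and was not called. Cox6a2 lay between 4.37 and 6.67 and Cox8c between 7.12 and 8.44, uncalled in each fraction comparison. Cox4i2 (4.37 to 7.0) and Cox8b (4.37 to 5.72) were not tested, while Cox4i1 (14.11 to 15.09), Cox6a1 (14.70 to 15.44) and Cox8a (12.49 to 13.13) were bright on all arrays. Levels of different genes are not comparable on these probes. Of the 7 striated muscle markers, 3 never exceeded the pooled median, Tnnt3 was at or near the floor on 11 arrays, and the list's sum was 416 to 456 in bulge and 341 to 494 in total keratinocytes.

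Markers of other cells differed between the fractions. The 6 fibroblast markers were lower in HG than in bulge, all called (median -3.51), and higher in bulge than in total keratinocytes, all called (median 2.68). Their summed signal was 15126 to 28934 in HG, 123172 to 280840 in bulge and 18188 to 46851 in total keratinocytes. All 6 melanocyte markers rose in HG against bulge (median 2.86), with sums of 10921 to 19364 in HG, 1121 to 2226 in bulge and 1001 to 2870 in total keratinocytes. In bulge against total keratinocytes, 2 of 3 endothelial markers rose (median 1.31). Of 5 pericyte and smooth muscle markers, 2 rose and 1 fell there. In HG against bulge, 3 of 4 sebocyte markers (median -0.94) and 3 of 14 dissociation stress genes fell. The part of these in the members' fraction differences was not tested.

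No member was called between the genotypes. On 12 arrays, paired by fraction and set, 0 of 90 members and 0% of 12749 genes passed, and 6 members and 1099 genes had an unadjusted limma p under 0.05. The difference from Het to cKO was negative in 79 members, with a median of -0.11 against 0.01 for all genes. Ndufaf4, Cox6b2 and Atp5md, an ATP synthase subunit, had the lowest values (-0.42, -0.42 and -0.40, limma adjusted p from 0.541 to 0.580). Ndufa4l2 and Cox8c were at the other end (0.72 and 0.27, limma adjusted p = 0.589 and 0.691), beside the dim Cox7c. Ndufv1 ranged from 12.16 to 12.93 in Het (median 12.42) and from 12.01 to 12.47 in cKO (median 12.18), lower in cKO in 6 of 6 pairs (-0.25, limma adjusted p = 0.592). The subunits taken to stand for the other complexes had -0.06 for Sdha, -0.22 for Uqcrc1, -0.0046 for Cox4i1 and -0.11 for Atp5b, none called. The members' median became -0.06 without the HG pair of set 1, -0.07 without the bulge pair of set 2 and -0.19 without the total keratinocyte pair of set 1. Of 6 fibroblast markers, 5 were higher in cKO (median 0.70, 4 at an unadjusted limma p under 0.05). So were 4 of 5 leukocyte (0.58), 4 of 5 keratinocyte (0.26), 3 of 4 sebocyte (0.33) and all 3 tested endothelial markers (0.27). Lower in cKO were 5 of 6 melanocyte (-0.11), 4 of 5 pericyte and smooth muscle (-0.04) and 3 of 4 hair germ markers (-0.40). Bulge markers were lower in 4 of 5 (-0.22, 1 at an unadjusted limma p under 0.05). No marker was called, and their part was not tested.

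The members' median genotype difference was negative in the HFSC pairs and positive in total keratinocytes. The median over members was -0.39 and -0.19 in HG of sets 1 and 2, -0.02 and -0.46 in bulge, and 0.22 and 0.05 in total keratinocytes. In bulge of set 1, 41 of 90 members were positive, and in total keratinocytes of set 2, 53 of 90. The 3′ to 5′ ratio of Gapdh was higher in cKO in HG (2.07 against 1.77, and 1.77 against 1.34). In bulge it was higher in cKO of set 1 (2.66 against 2.14) and lower in that of set 2 (1.49 against 2.05). In total keratinocytes it was lower in cKO (1.47 against 1.72, and 1.08 against 1.38). The 18S signal was higher in cKO in HG of set 1 and total keratinocytes, and lower elsewhere. The part of RNA quality was not tested. An added contrast compared the genotype difference of HG with that of total keratinocytes. Its member median was -0.37, with 84 of 90 negative, 6 at an unadjusted limma p under 0.05 and none called (lowest adjusted p 0.97). For bulge against total keratinocytes it was -0.32, with 79 negative, 6 unadjusted and none called (lowest adjusted p 0.696). No gene of 12749 was called in either.

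Within the HFSCs the labelled states were compared on the 8 HG and bulge arrays, where HG and bulge are the observations of a state. Within each genotype, state and set changed together, so a difference of state cannot be told apart from one of set. RNA quality also moved with set, as given above, and its part was not tested. In Het, activated against quiescent cells gave 0 called members (0.707% of 12589 genes called), 83 positive, a median of 0.32 and 15 members at an unadjusted limma p under 0.05. Ndufc1 (0.76), Cox5a, of complex IV (0.74), and Cox6b2 (0.78) had the highest values, and Ndufa4l2 had -1.30. Cox7c was close to the floor in Het bulge of set 2 (4.54) and Cox6a2 at the floor in HG of set 2 in both genotypes, so neither is given a size or a rank in comparisons that use the arrays of set 2. In cKO, set 2 against set 1 gave 0 called members (0% of genes), 77 positive, a median of 0.24 and 1 member at an unadjusted limma p under 0.05. The fractions differed, with a median of 0.49 in HG (84 of 90 positive) and -0.02 in bulge (43 of 90). Ndufc1 (0.63), Ndufc2 (0.55) and Sdhaf1 (0.53) were highest, and Ndufa4l2 had -0.53 and Uqcrc1 -0.49. From set 1 to set 2, Ndufa4l2 had 9.43 and 9.98 in cKO HG but 9.02 and 7.40 in cKO bulge. The cKO median became 0.05 without HG of set 1, 0.09 without HG of set 2, 0.40 without bulge of set 1 and 0.38 without bulge of set 2. The interaction, the cKO difference minus the Het difference, had a median of -0.07 with 59 members negative, 1 at an unadjusted limma p under 0.05 and none called (0.00794% of genes). Uqcrc1 (-0.82), Cox5a (-0.80) and Ndufb7 (-0.66) were lowest. Ndufa4l2 had 0.77 and Ndufa6 0.52, each positive in HG and negative in bulge. The median was 0.24 in HG and -0.46 in bulge, of opposite sign, and the pooled median turned to 0.10 without cKO bulge of set 1 and 0.07 without that of set 2.

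In set 2, aberrantly quiescent cKO HFSCs were compared with activated Het HFSCs. The members' median was -0.27, with 81 of 90 negative, 14 at an unadjusted limma p under 0.05 and none called (0.262% of genes). Cox5a, a nuclear-encoded subunit of complex IV, had 14.57 in Het HG and 14.15 in Het bulge against 13.74 and 13.17 in cKO, a difference of -0.90 (SE 0.25, limma adjusted p = 0.135). Ndufb7, an accessory subunit of complex I, had 12.79 and 12.14 against 11.81 and 11.40 (-0.86, limma adjusted p = 0.156). Uqcrc1 followed at -0.80 (limma adjusted p = 0.203), and Ndufa4l2 had 1.21 and Cox8c 0.35. These positive values came from HG alone. From Het to cKO, Ndufa4l2 had 7.03 and 9.98 in HG but 7.95 and 7.40 in bulge. Cox8c had 7.12 and 7.91 in HG but 8.28 and 8.19 in bulge. In set 1, where both genotypes are labelled quiescent, the median was -0.20 with 76 negative, 2 at an unadjusted limma p under 0.05 and none called (0% of genes). Sdhaf1 (-0.64), Ndufc1 (-0.58) and Ndufb1 (-0.50) were lowest. Ndufa4l2 (0.44), Ndufaf7 (0.41) and Cox7c (0.28, higher in cKO in bulge but lower in HG) were highest. That median became -0.04 without cKO HG, -0.12 without Het HG and -0.36 without cKO bulge, and the median of set 2 became -0.15 without cKO bulge and -0.42 without cKO HG. Without Het bulge of set 2, 10 members fell and 1 rose in the comparison of set 2, and 8 rose and 1 fell between the sets in Het, in a fit that takes the lone Het array to vary like the other groups.

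Other mitochondrial genes were read in the same set comparison, in which 2.00% of all genes rose and 3.10% fell. The 76 mitochondrial ribosomal protein genes, whose products translate the subunits encoded in mitochondrial DNA, were all positive, with a median of 0.37, and 12 rose. The largest among those called were Mrps33 (0.65), Mrpl18 (0.63), Mrpl42 (0.63) and Mrpl17 (0.61). Of 22 import genes, 2 rose, Timm8b by 0.70 and Timm22 by 0.54, and the median was 0.34. Of 36 assembly factors outside the symbol rule, Coa6 alone rose (0.49, 2.78% of the list) and the median was 0.17. Of 17 genes of the TCA cycle and pyruvate dehydrogenase, the fumarase Fh1 rose (0.44) and the median was 0.14. Of 19 genes for electron entry and coenzyme Q, the glycerol phosphate dehydrogenase Gpd2 fell by 0.76, and the median was 0.12. Of 23 regulators of mitochondrial biogenesis, the mitochondrial transcription elongation factor Tefm rose (0.71), with a median of 0.05, and of 13 hypoxia genes Egln3 rose (0.93) and Epas1 fell by 1.04.

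Among regulators known to drive respiratory chain genes, those chosen for naming were not called in that comparison. The genes of GABP and YY1 were measured but are not described here. Ppargc1a had a difference of -0.76 (limma adjusted p = 0.177), Ppargc1b of -0.53 (0.0557), Nrf1 of -0.41 (0.112), Esrra of -0.22 (0.376), Myc of -0.21 (0.501) and Tfam of 0.17 (0.406). The electron carrier Cycs was at 0.50 (0.0549), its partner in complex III Cyc1 at 0.40 (0.0853), and Atpif1, the inhibitor of the ATP synthase, at 0.23 (0.343). Between the fractions, Myc fell against total keratinocytes in HG (by 1.01, limma adjusted p = 0.0180) and in bulge (by 0.70, 0.0445), and Nrf1 rose in HG (by 0.64, 0.0499). The coactivator Pprc1 rose in HG against bulge by 1.01 (limma adjusted p = 0.0127) and fell in bulge against total keratinocytes by 1.10 (0.00347). Higd1a, a hypoxia-induced factor that associates with complex IV, followed the same order, by 0.92 (0.00361) and -1.23 (0.000169). The thioredoxin reductase Txnrd2 ran the other way, by -1.96 (0.00110) and 2.53 (0.000120). These genes are examples. In bulge against total keratinocytes, 2 rose and 2 fell of the 23 regulators, and 1 rose and 3 fell of 8 reactive oxygen genes. Of the 36 assembly factors 2 rose and 2 fell (13.8% and 10.5% of all genes). In HG against bulge 2 of 17 TCA cycle genes and 2 of 19 electron entry genes rose, and none fell (8.44% and 10.7% of all genes).

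**Figure D5:**
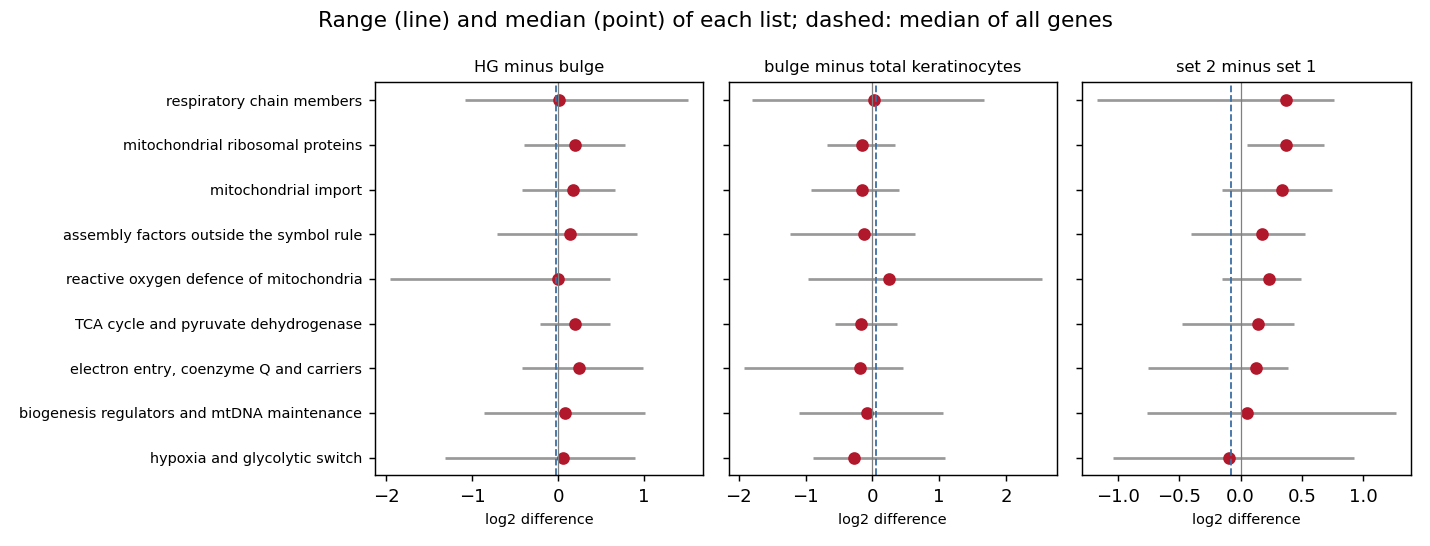
Median (point) and range (line) of the log2 differences of each mitochondrial gene list (y axis) in 3 comparisons (panels), with the median of all genes dashed. In set 2 minus set 1 the medians were 0.37 for both the respiratory chain members and the mitochondrial ribosomal proteins, and -0.09 for the hypoxia list.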

How the data were processed

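The deposited values are linear MAS5 intensity, 1 column per array. The method comes from the submitters' processing notes, where no version was found. The authors' scaling, checked in the values, brings the mean without the highest and lowest 2% of probe sets to 500. Of 45101 probe sets, 34945 had a single symbol. Per gene the probe set of highest mean log2 signal was kept, giving 18193 genes, and symbols were updated through RefSeq. Values under the pooled 25th percentile (20.7) were set to it before the log2. A gene was tested where 2 or more arrays of the fit exceeded the pooled median (84.7).

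Tests used limma 3.58.1 in R 4.3.3 (lmFit, eBayes with trend), two-sided, with Benjamini-Hochberg adjustment over all genes tested. The block was genotype and set for fractions, genotype and fraction for sets, and fraction and set for genotypes. Fits were tested on simulated data. The small number of arrays limits precision.

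The members, lists and tests were chosen with earlier results of these data known, and the genotype contrast by fraction was added after the values were seen. Named were 1 core subunit per complex, the isoform pairs, Atpif1, the regulators, up to 6 called members each way per comparison (with 3 each way where none passed) and up to 4 called genes per other list. Between fractions only some called genes of the other lists were named. Further members were named to describe their probe sets or their part in a count. Alternatives covered scaling, floor, filter, probe sets, trend, fold minimum, blocks and left-out arrays.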

Additional observations from a re-analysis of the deposited data

Results flagged for a closer look

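The members' median difference from Het to cKO had opposite signs in HFSCs and in total keratinocytes. It was -0.39 in HG of set 1, -0.19 in HG of set 2, -0.022 in bulge of set 1 and -0.46 in bulge of set 2. In total keratinocytes it was 0.22 in set 1 and 0.049 in set 2. The members were split in 2 of these pairs, with 41 of 90 positive in bulge of set 1 and 53 of 90 in total keratinocytes of set 2. The difference between these medians was not tested. RNA quality also differed between the genotypes within these pairs, as given above, and its part was not tested. The contrast fitted for each gene called no member, with lowest limma adjusted p of 0.97 for HG and 0.696 for bulge, each against total keratinocytes.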

How the results depend on the processing

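No called direction reversed under any alternative run, although the uncalled interaction median ranged from -0.26 to 0.10 with arrays left out, and the members' median set difference stayed between 0.29 and 0.52. Members' medians between fractions lay between -0.15 and 0.14 and crossed 0. The count of members called depended on the settings, and the cause was not tested. Of the 2 members risen in HG against bulge, quantile normalization gave 5, no filter 0, and the mean of probe sets, eBayes without trend, a 1.5-fold minimum or no condition block 1. The 1 risen in HG against total keratinocytes became 2 with the floor at the median or without trend, and 0 without the block. For bulge against total keratinocytes (5 risen, 4 fallen), the counts were 3 and 8 by quantile normalization, 3 and 9 by median centring, 3 and 1 with no filter, 3 and 2 with the mean of probe sets or without trend, 2 and 2 without the block, and 2 risen with the floor at the median. The 12 members risen in set 2 became 56 by median centring, 6 with the floor at the median, 0 with no filter or without trend, 2 with the mean of probe sets, 1 with a 1.5-fold minimum and 3 with fraction as the only block. In Het HFSCs the median became 0.55 by median centring, and 1 member rose in the fit of all 12 arrays.

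The genotype comparison, paired by fraction and set, kept 0 calls and a median of -0.11 with no replicate block.

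Leaving out arrays gave 1 to 3 risen and 0 to 1 fallen in HG against bulge, 0 to 2 risen in HG against total keratinocytes, 2 to 4 risen and 2 to 5 fallen in bulge against total keratinocytes, 0 to 22 risen in set 2, 0 to 8 risen and 0 to 1 fallen in Het HFSCs, and 0 to 1 risen and 0 to 10 fallen between genotypes in set 2.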
